A study of Mus musculus with 8 samples.

Results

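The subunits of the vacuolar proton pump (V-ATPase), the cathepsins and the lysosome-associated membrane proteins (LAMPs) were described in purified mouse Paneth cells. Members were the protein-coding genes whose GENCODE symbol marks a V0 or V1 subunit (Atp6v0, Atp6v1), an accessory subunit (Atp6ap1, Atp6ap2), a cathepsin (Cts followed by 1 letter) or Lamp1, Lamp2 or Lamp3. The rule used names and no measured value, and it found 45 of the 55414 gene IDs in the table: 24 V-ATPase genes, 18 cathepsins and 3 LAMPs. RNA-seq counts came from 8 libraries of Paneth cells sorted from the small intestine of C57BL/6J mice. The 4 water libraries came from mice that drank Milli-Q water, and the 4 zinc libraries from mice that drank such water with 25 mM ZnSO4 for 7 days. No allele, transgene or other agent was named for either group, and age was not given in the sources used here. Each library is numbered 1 to 4 within its group, and the study's methods describe sorted samples taken from single mice.

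The V-ATPase is a rotary pump. Its V1 part hydrolyses ATP on the cytosolic side, and its V0 part carries protons across the membrane, so that lysosomes, endosomes and the maturing granules of secretory cells become acidic. Cathepsins are proteases, most of them active at acidic pH in the lysosome, and they fall by their catalytic residue into cysteine, aspartic and serine classes. LAMP1 and LAMP2 are heavily glycosylated proteins that line the inner face of the lysosomal membrane.

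Library totals ran from 20760764 to 24117111 counts, and a count of 0 left room for a level of at most 0.115 to 0.188 CPM (the count of a gene relative to a fixed library size after scaling by TMM factors, for a limit of 3 counts). The TMM factors of replicate 1 were the lowest in both groups, at 0.764 in water and 0.775 in zinc. The 6 Paneth cell markers Lyz1, Defa24, Itln1, Mmp7, Ang4 and Mptx1 were all detected and summed to between 299725 and 611510 CPM. These sums are on the TMM scale and are not shares of the reads. Markers of T and NK cells, of fibroblasts and of endothelium were near 0, with 4 of 6, 3 of 4 and 2 of 3 genes at 0 counts in every library. The zinc-induced metallothionein genes Mt1 and Mt2 were higher in all 4 zinc libraries, with log2 fold changes of 3.65 (SE 0.38, adjusted p = 0.0259) and 6.15 (SE 0.51, adjusted p = 0.0198) in edgeR. With the replicate number as a block the adjusted p was 0.379 for Mt1 and 0.241 for Mt2, past the threshold for neither. Zinc against water gave 10 genes past an adjusted p of 0.05 among 11988 tested.

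Promoter sequence was looked at first, because many lysosomal genes are known to share a target sequence of the TFEB family of transcription factors, the CLEAR element, a palindrome whose centre is the E-box CACGTG. RefSeq promoter windows (GRCm38.p6, 250 bases before to 50 after the start of a gene) were matched by symbol for 35 of the 45 members and for 23 of the 30 that passed the low-count filter. The complete palindrome, searched on both strands, was in 0 of these 23 promoters and in 0.848% of the promoters of all tested genes. At so low a share, 0 of 23 does not show that the members lack the element, and inexact matches were not searched. Its centre CACGTG, which reads the same on both strands and is contained in the longer element, was in 9 of the 23, or 39.1%. The share was 12.02% for the promoters of all tested genes and 8.09% for all promoters. In a list of other lysosome genes, described below, 24 of the 82 tested genes with a window held CACGTG (29.3%). The complete palindrome was in 2 of those 82 (2.44%). The 9 members with CACGTG were Atp6v0b, Atp6v0d1, Atp6v0e, Atp6v1a, Ctsa, Ctsd, Ctsf, Ctsl and Lamp1. The following stretches of 30 bases are printed for genes that are described in the results, 5′ to 3′ on the strand of the gene, with CACGTG in capitals.
Lamp1, chr8:13159097-13159126, plus strand: tatCACGTGgtccagcgccCACGTGatgcc
Lamp1, chr8:13159130-13159159, plus strand: tggCACGTGaccacatCACGTGcggaacgg
Atp6v0b, chr4:117887339-117887368, minus strand: ggtCACGTGgggtcggcgcatCACGTGcgc
Ctsd, chr7:142387899-142387928, minus strand: tctCACGTGacccgttgagggccaaacaag
Ctsa, chr2:164833743-164833772, plus strand: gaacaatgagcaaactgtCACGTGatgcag
Ctsl, chr13:64370730-64370759, minus strand: agcCACGTGctgatctaaattctatggaca
Atp6v1a, chr16:44139364-44139393, minus strand: aatCACGTGataggcttaacgtcttccagc
The promoter of Lamp1 held 4 copies of CACGTG, all within the 64 bases before the start, and those of Atp6v0b, Ctsa and Ctsd held 2 each, of which 1 is printed for Ctsa and for Ctsd. The core of the metal response element, through which the zinc sensor MTF1 acts on metallothionein genes, was also searched on both strands. Its form TGCACNC was in 2 of the 23 promoters (8.70%, against 15.2% of tested genes) and its form TGCGCNC in 6 (26.1%, against 30.7%). These matches describe letters in the windows and are not evidence of binding.

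Of the 45 members, 30 passed the low-count filter and were tested. The other 15 were low throughout, and 11 of them had 0 counts in every library. These 11 included members known from other tissues: Ctsk, the collagen-degrading cathepsin of osteoclasts; Ctsg, a serine protease of neutrophil granules; Ctsw, of cytotoxic lymphocytes; Lamp3, of mature dendritic cells; and Ctsj, Ctsm, Ctsq and Ctsr, of the rodent placenta. Atp6v0d2, Atp6v1e2 and Atp6v1g3, each an alternative isoform of a pump subunit, were also at 0. The remaining 4 were detected at a few counts. Ctse, an aspartic protease, had 0 to 22 counts per library, with 0.125, 0, 0.592 and 0.84 CPM in water 1 to 4 and 0, 0.193, 0.356 and 0.659 CPM in zinc 1 to 4. The B1 subunit gene Atp6v1b1, known from acid-secreting cells of the kidney, had 0 to 9 counts per library, and Atp6v0a4 and Atp6v1c2 had 2 counts each in all 8 libraries together.

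Levels were compared between genes as TMM-scaled CPM per kb of merged exons. Lamp1 (GRCm39 chr8:13209121-13227360, plus strand, 8 merged exons) had the highest mean level of all members, at 68.9 CPM per kb, and stood 161st among 11977 tested genes with a length. Next came the aspartic protease gene Ctsd (29.9), the cysteine protease gene Ctsb (28.8), Lamp2 (25.8) and Atp6ap2 (25.5). Lamp1 was above Ctsd in 8 of 8 libraries and their ranges did not overlap, whereas Ctsd was above Ctsb in 4 of 8. From Ctsd down to Ctss, each member overlapped in range with its neighbour in the order, so that most neighbours could not be ranked apart. Atp6v1f was nevertheless above Ctsz, Atp6v0b above Atp6ap1 and Atp6v1b2 above Atp6v0d1 in 8 of 8 libraries. The next gap was between Ctss (1.82) and Ctso (0.974).

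Altogether 11 members were in the top 10% of tested genes by level per length: Lamp1, Lamp2, Ctsd, Ctsb, Ctsz, Ctsa, Atp6ap1, Atp6ap2, Atp6v1f, Atp6v0b and Atp6v1b2. In contrast, Ctss, Ctso, Ctsf, Atp6v1g2 and Atp6v0e2 were below the median of the tested genes. The choice of length moved single levels. Per kb of the longest coding transcript, Lamp1 (137) and Lamp2 (81.5) ranked first and second among the members, and Ctsd (36.8) came sixth.

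**Figure D1:**
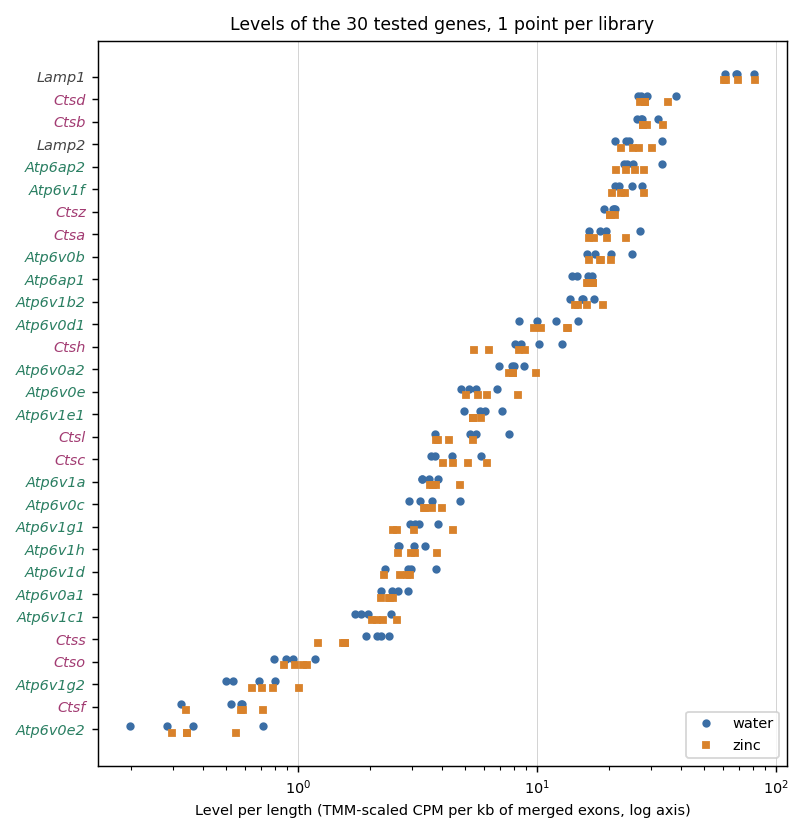
Level per length of the 30 tested genes (TMM-scaled CPM per kb of merged exons, log axis), with 1 point per library, circles for water and squares for zinc. Genes are sorted by mean level and their names are coloured for V-ATPase (green), cathepsins (purple) and LAMPs (grey). Lamp1 stands apart from all others, and water and zinc points lie over each other for nearly all genes.

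Several pump subunits are encoded by alternative genes, and the Paneth cell libraries were dominated by 1 isoform in most families. The a subunit of V0 carries the proton path and is known to steer the pump to different membranes. Here Atp6v0a2, the isoform known from the Golgi and endosomes, held 65.3% of the a family per length. Atp6v0a1 held 19.97%, and Tcirg1, the a3 isoform of osteoclast and secretory lysosomes, held 14.7%. The kidney isoform Atp6v0a4 held 0.025%. The order a2, a1, a3 was the same within every library. The share of Atp6v0a2 ran from 60.4% to 69.3%, that of Atp6v0a1 from 17.5% to 22.3% and that of Tcirg1 from 13.2% to 17.6%. The ranges of Atp6v0a1 and Tcirg1 overlapped at their ends, so their order was read library by library.

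The remaining families were simpler. Subunit d was 100% Atp6v0d1 and subunit E was 100% Atp6v1e1. Subunit B, which forms the nucleotide-binding head together with subunit A, was 99.8% Atp6v1b2, and subunit C was 99.8% Atp6v1c1. Atp6v0e held 93.7% of its family, but the share of Atp6v0e2 was 12.96% in water 4 against 3.68% to 8.16% in the other 7 libraries. In family G, a part of the stator stalk, Atp6v1g1 held 81.7% and Atp6v1g2, known from neurons, 18.3%. That last value depends on gene length: with the longest coding transcript Atp6v1g1 held 93.3%, and with no division by length 89.7%.

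**Figure D2:**
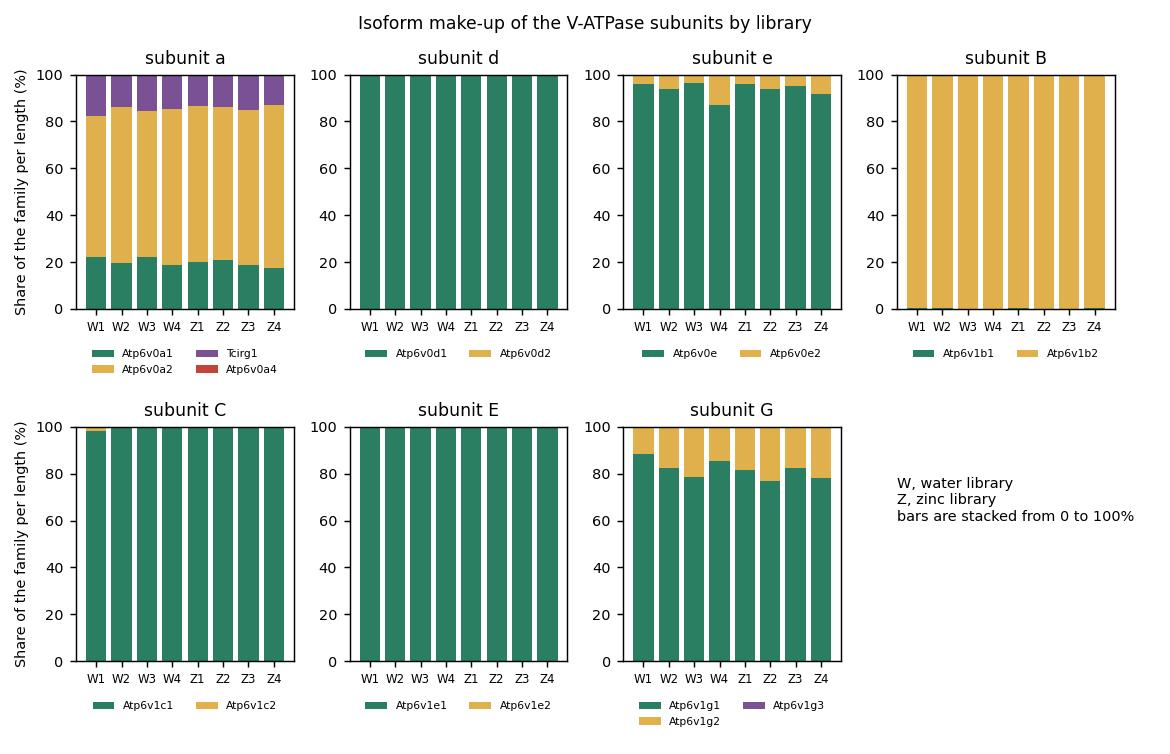
Share of each isoform in its V-ATPase subunit family, in percent of the summed level per length, stacked from 0 to 100 for water libraries 1 to 4 (W1 to W4) and zinc libraries 1 to 4 (Z1 to Z4). Atp6v0a2 is the largest part of family a in every library, and the families d, B, C and E are almost entirely 1 gene.

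Zinc was then compared with water, member by member. None of the 30 tested members passed the adjusted threshold in edgeR (0 of 30, against 0.0834% of all tested genes), and DESeq2 and limma-voom also gave 0. At an unadjusted p below 0.05 there were 2 members, both cysteine cathepsins with lower values in zinc, Ctss and Ctsh, against 4.65% of all tested genes (2.81% in the lower direction). The groups did not overlap for 1 member, Ctss (2.84% of all tested genes, 1.59% in the lower direction). Both counts are small and near the shares over all tested genes, so they do not set the members apart. The values of Ctss and Ctsh below only describe these genes. The log2 fold change was above 0 for 14 members and below 0 for 16, with 48.1% of all tested genes below 0. Its median was -0.0073 over the members and 0.0085 over all tested genes.

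The estimates were precise enough to bound most members. The 95% interval of the difference lay within 1.5-fold in either direction for 24 of the 30, compared with 60.0% of all tested genes, and within 2-fold for all 30. The 6 wider ones were Atp6v0e2, Atp6v1g2, Ctsf, Ctsh, Ctsl and Ctss. The median SE was 0.14 over the members and 0.17 over all tested genes. A miss of the threshold does not show equal levels, and a smaller difference was not detectable with 4 libraries per group.

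**Figure D3:**
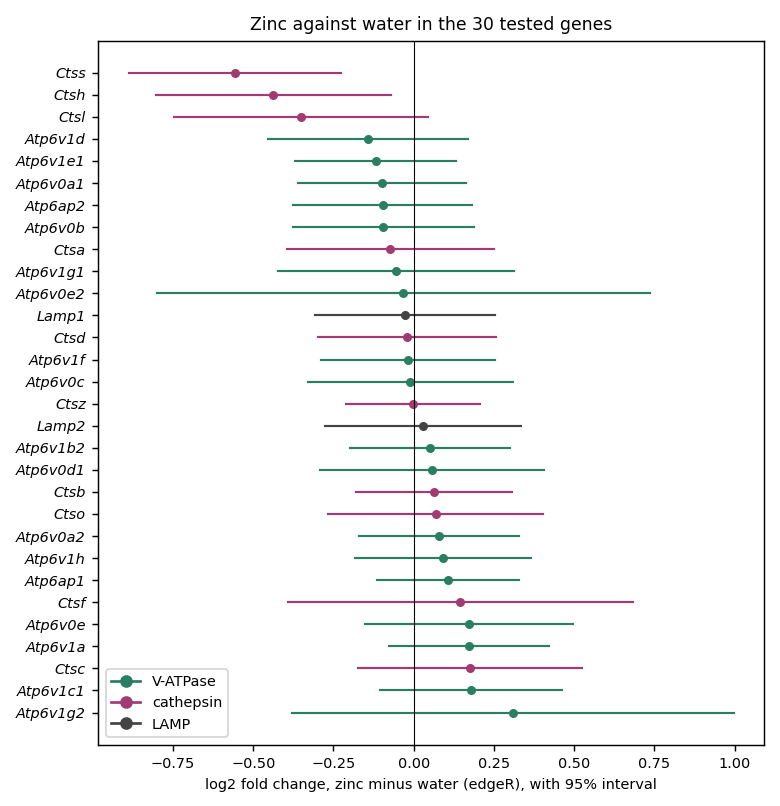
Log2 fold change of zinc minus water for the 30 tested genes (points, edgeR) with 95% intervals (lines), sorted and coloured by class. All intervals include 0 except those of Ctss (-0.89 to -0.23) and Ctsh (-0.80 to -0.07), and neither gene passed the adjusted threshold.

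Ctss encodes cathepsin S, a cysteine protease best known for degrading the invariant chain of MHC class II molecules in antigen-presenting cells (GRCm39 chr3:95433963-95463717, plus strand, 10 merged exons). Its level was 10.2, 11.8, 11.3 and 12.7 CPM in water 1 to 4 (11.5 ± 1.05, SD, n = 4). In zinc 1 to 4 it was 6.41, 8.30, 8.22 and 8.30 CPM (7.81 ± 0.931, SD, n = 4). Each zinc library lay below each water library. The log2 fold change was -0.56 (SE 0.16, edgeR unadjusted p = 0.0024, adjusted p = 0.523). With each library left out in turn it ran from -0.61 to -0.48, and the unadjusted p stayed below 0.05 in 8 of 8 fits, although the adjusted p did not.

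Markers of myeloid and B cells, which are known to express Ctss, were read beside it, and so were those of stem cells. The 8 macrophage and myeloid markers summed to 15.0 to 38.0 CPM in water and 14.2 to 25.2 CPM in zinc. Most of this sum was Lyz2, so it says little about the other markers. Lyz2, like the Paneth marker Lyz1, was highest in replicate 1 of both groups, and its cell of origin was not tested. Of the 8 markers 2 could be tested, of which 0 passed. Csf1r, C1qb and C1qc had at most 1 count in any library. C1qa was at 2.63, 0.988, 0.55 and 0 CPM in water 1 to 4 and at 0.178 CPM or 0 in zinc. Within water, C1qa was highest in water 1 and Ctss was lowest there, while between the groups both genes had the lower mean in zinc. C1qa had at most 42 counts in a library. Adgre1 was at 0.751 CPM in water 1 and at 0 elsewhere. Cd68 went the other way, with means of 0.115 CPM in water and 0.312 CPM in zinc, and Itgam had means of 0.383 and 0.400 CPM. The 4 B and plasma cell markers summed to at most 0.388 CPM in any library. In the stem cell list, the sum was 4356 to 5728 CPM in water and 3047 to 4455 CPM in zinc, nearly all of it Olfm4. The log2 fold change of Olfm4 was -0.48 (SE 0.19, edgeR unadjusted p = 0.0243, adjusted p = 0.998). With the replicate number as a block its edgeR unadjusted p was 0.0029 and its adjusted p was 0.297. The other 3 stem cell markers had log2 fold changes of -0.02 (Lgr5), -0.24 (Ascl2) and 0.06 (Smoc2), and 0 of the 4 passed the threshold. The part of the C1qa and Olfm4 values in the Ctss values was not tested. In bulk libraries, fewer cells of a type and less RNA per cell cannot be told apart.

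Ctsh encodes cathepsin H, an aminopeptidase of the lysosome (GRCm39 chr9:89936205-89958148, plus strand, 14 merged exons). Water 1 to 4 had 63.3, 40.3, 50.7 and 42.8 CPM, and zinc 1 to 4 had 42.1, 31.5, 44.6 and 27.3 CPM. The groups overlapped, since zinc 1 and zinc 3 were above water 2, but at each replicate number zinc was below water. With the replicate number as a block the edgeR unadjusted p was 0.00035 and the adjusted p was 0.101. The log2 fold change was -0.44 (SE 0.17, edgeR unadjusted p = 0.0225, adjusted p = 0.998), and the unadjusted p was below 0.05 in 4 of the 8 fits with a library left out. Without water 1 the log2 fold change was -0.30 (unadjusted p = 0.0814).

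The third lowest fold change belonged to Ctsl, the gene of cathepsin L, a broad endopeptidase. It is named here after its values were seen. It had 50.7, 34.9, 37.2 and 25.0 CPM in water and 36.0, 25.7, 28.7 and 25.2 CPM in zinc. Water 4 was the lowest of all 8 libraries, so the groups overlapped. Its log2 fold change was -0.35 (SE 0.18, edgeR unadjusted p = 0.0782).

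The remaining 5 tested cysteine cathepsins had log2 fold changes between -0.0034 and 0.18. Ctsb, a major lysosomal peptidase, had 246, 201, 210 and 208 CPM in water and 257, 213, 213 and 221 CPM in zinc (log2 fold change 0.06, SE 0.12). Replicate 1 was the highest in both groups. Ctsz, a carboxypeptidase also called cathepsin X, had the steadiest values of the set. Its levels were 77.9, 78.4, 70.9 and 77.2 CPM in water and 78.4, 75.8, 74.9 and 74.6 CPM in zinc, a coefficient of variation of 4.59% and 2.29%. Its log2 fold change was -0.0034 (SE 0.10). Ctsc, which activates granule serine proteases, had means of 27.4 CPM in water and 31.0 CPM in zinc.

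**Figure D4:**
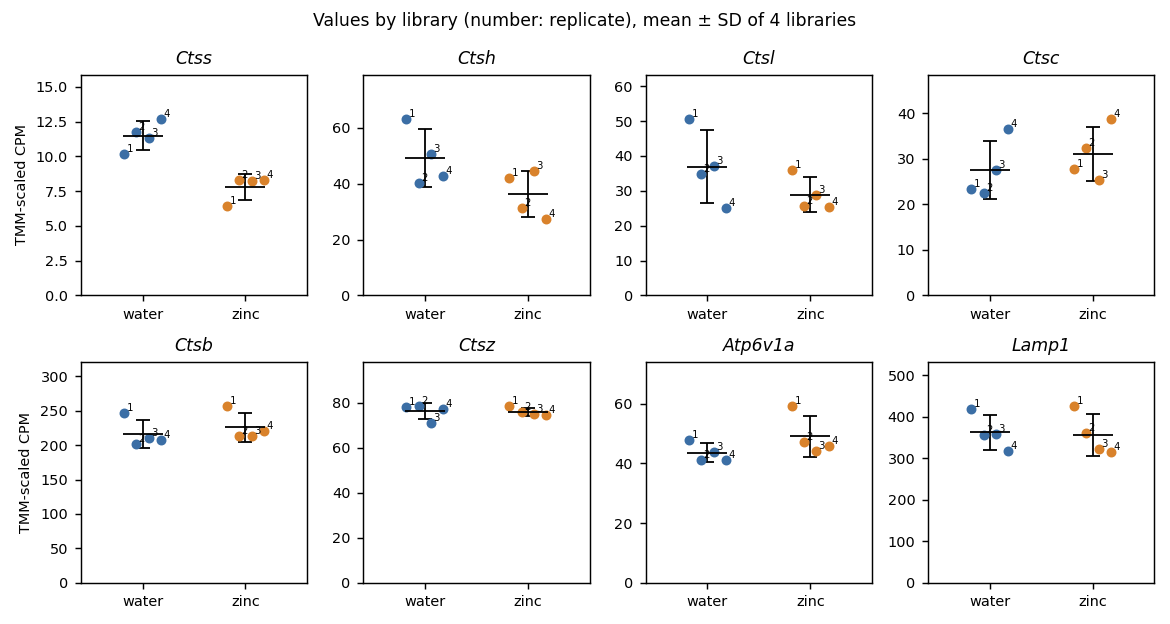
TMM-scaled CPM of 8 members in each library (points numbered by replicate, axis from 0), with the mean and SD of the 4 water and 4 zinc libraries as a line and bars. The zinc points of Ctss, from 6.41 to 8.30, lie below all water points, from 10.2 to 12.7, and in the other 7 panels the groups overlap.

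Outside the cysteine class, Ctsd and Ctsa were the tested cathepsins. Ctsd, the main aspartic protease of lysosomes, had 105, 79.9, 75.1 and 73.1 CPM in water and 97.8, 78.0, 74.2 and 78.1 CPM in zinc. Its log2 fold change was -0.02 (SE 0.13). Ctsa, a serine carboxypeptidase that also shields β-galactosidase and neuraminidase in the lysosome, had 139, 99.9, 94.5 and 85.0 CPM in water and 122, 101, 85.2 and 89.5 CPM in zinc (log2 fold change -0.07, SE 0.15). In both genes replicate 1 was the highest library of each group, and the groups overlapped throughout.

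The membrane protein genes overlapped between the groups. Lamp1 had 419, 355, 358 and 318 CPM in water and 426, 362, 322 and 314 CPM in zinc, and its log2 fold change was -0.03 (SE 0.13, 95% interval -0.31 to 0.25). Lamp2, whose splice forms include a receptor for chaperone-mediated autophagy, had 421, 308, 299 and 270 CPM in water and 383, 319, 338 and 285 CPM in zinc, with a log2 fold change of 0.03 (SE 0.15). The splice forms of Lamp2 were not told apart by counts per gene. For each gene, replicate 1 was the highest in its group and replicate 4 the lowest.

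Among the 7 tested V0 genes, 3 were above 0 and 4 below, with log2 fold changes from -0.10 to 0.17. Atp6v0a2 had 55.2, 61.0, 47.8 and 54.5 CPM in water and 54.9, 52.6, 55.0 and 68.2 CPM in zinc (log2 fold change 0.08, SE 0.12). Atp6v0b, a proteolipid of the rotating ring, had 53.4, 43.4, 34.7 and 37.4 CPM in water and 43.7, 39.3, 39.8 and 35.4 CPM in zinc (-0.09, SE 0.13). The zinc values of Atp6v0b lay within the range of the water values. Atp6v0d1, which couples the ring to the central stalk, had 67.2, 54.6, 45.6 and 38.1 CPM in water and 61.3, 60.8, 44.3 and 47.4 CPM in zinc (0.06, SE 0.16). Atp6v0e, a small membrane subunit, had the smallest unadjusted p of the V0 genes, at 0.275 in edgeR. It had 35.2, 28.9, 26.8 and 24.9 CPM in water and 43.0, 26.2, 29.2 and 32.0 CPM in zinc (0.17, SE 0.15).

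Of the 9 tested V1 genes, 5 were above 0 and 4 below, from -0.14 to 0.31. The catalytic A subunit gene Atp6v1a had 47.9, 41.2, 43.8 and 41.1 CPM in water and 59.2, 47.0, 44.3 and 45.7 CPM in zinc. Its log2 fold change of 0.17 (SE 0.12) had the smallest unadjusted p of the V1 genes, at 0.161 in edgeR, and water 1 was above 3 of the 4 zinc libraries. Atp6v1b2 had 116, 104, 103 and 91.6 CPM in water and 126, 99.2, 96.3 and 108 CPM in zinc (0.05, SE 0.12). Atp6v1e1, of the stator stalk, had 49.6, 42.2, 40.2 and 34.6 CPM in water and 37.5, 40.7, 37.4 and 37.6 CPM in zinc (-0.12, SE 0.12). Atp6v1f, of the central rotor, had 34.6, 31.3, 26.6 and 27.6 CPM in water and 35.1, 29.3, 28.3 and 25.9 CPM in zinc (-0.02, SE 0.13). In all 4 genes the water and zinc values overlapped. The top of the V1 range was Atp6v1g2, with 21 to 50 counts per library and a wide interval of -0.38 to 1.00.

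Both accessory genes overlapped between groups as well. Atp6ap1, whose product guides assembly of the pump, had 76.7, 73.8, 65.8 and 62.7 CPM in water and 76.9, 77.0, 73.8 and 72.5 CPM in zinc (log2 fold change 0.11, SE 0.11). Atp6ap2, also known as the prorenin receptor, had 150, 104, 106 and 113 CPM in water and 115, 106, 96.1 and 126 CPM in zinc (-0.10, SE 0.13).

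Summed per length, the functional groups differed little between water and zinc. V0 summed to a mean of 51.1 CPM per kb in water and 51.2 in zinc, and V1 to 60.7 and 61.1. The cysteine cathepsins summed to 72.1 ± 5.85 in water and 69.5 ± 4.27 in zinc, and the LAMPs to 95.2 ± 13.2 and 94.4 ± 12.7 (SD, n = 4). For each of the 7 groups the difference between the means was smaller than either SD. These sums carry no test.

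Libraries of the same group also differed from each other. On the TMM scale, 17 of the 30 tested members were highest in replicate 1 of both groups, against 12.9% of all tested genes. These 17 were 10 pump genes (Atp6v0b, Atp6v0c, Atp6v0d1, Atp6v0e, Atp6v1a, Atp6v1b2, Atp6v1c1, Atp6v1f, Atp6v1g1 and Atp6v1h), 5 cathepsins (Ctsb, Ctsf, Ctsl, Ctsd and Ctsa) and both Lamp1 and Lamp2. The Paneth marker sum was also highest there on the TMM scale, at 606316 CPM in water 1 and 611510 CPM in zinc 1, against 299725 to 427769 in the other 6 libraries. The low TMM factors of replicate 1 (0.764 in water, 0.775 in zinc) raise every CPM value of these libraries, this sum included. The marker sum was not taken on library totals. With library totals as the only scaling the direction turned: 0 of the 30 were highest in replicate 1 of both groups (0.417% of all tested genes), and 13 were lowest there (60.8%). The part of the marker sum and of the scaling in this pattern was not tested.

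Replicate 4 was the highest in both groups for 2 of the 30, Ctsc and Atp6v0e2, against 10.5% of all tested genes. The members thus showed no excess, and the values below only describe these 2 genes. Ctsc had 23.4, 22.5, 27.5 and 36.4 CPM in water and 27.7, 32.3, 25.3 and 38.8 CPM in zinc. Atp6v0e2, known from brain, had 2.00, 2.58, 1.40 and 5.04 CPM in water and 2.43, 2.41, 2.09 and 3.88 CPM in zinc. The tuft cell marker sum was 14.01, 27.1, 51.4 and 120 CPM in water and 17.1, 49.0, 81.7 and 61.2 CPM in zinc, so that its highest library was water 4 in water but zinc 3 in zinc. Of the 6 goblet cell markers, Fcgbp, Zg16 and Clca1 were highest in replicate 4 of both groups. Fcgbp had 1305 CPM in water 4 and 1636 CPM in zinc 4, against 401 to 1022 CPM elsewhere. Zg16 had 82.1 and 172 CPM there, against 8.25 to 25.3 CPM, and Clca1 had 238 and 124 CPM, against 5.52 to 24.3 CPM. The other 3 goblet markers, Muc2, Tff3 and Spink4, were not highest in replicate 4 of both groups. The part of tuft and goblet cells in these values was not tested.

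**Figure D5:**
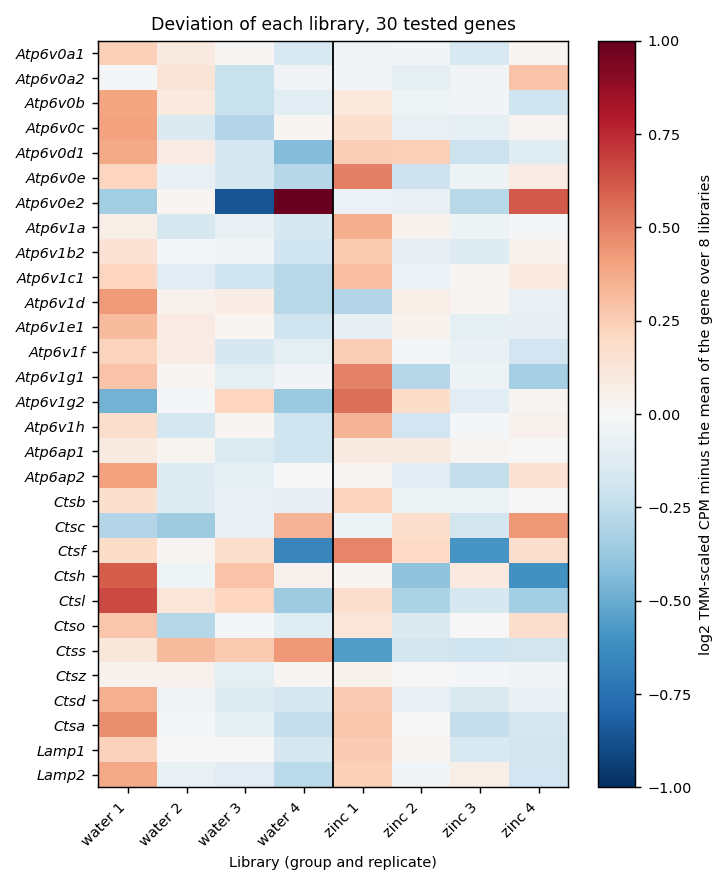
Deviation of each library from the mean of the gene over 8 libraries (log2 TMM-scaled CPM, red higher and blue lower) for the 30 tested genes, with water libraries left and zinc libraries right of the line. The columns of replicate 1 are mostly red in both groups on this scale, and only the row of Ctss changes colour at the line in all 8 libraries.

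The rest of the lysosome was read from the same fit, through a list of 118 other genes, of which 107 could be tested. None passed the adjusted threshold in edgeR (0 of 107, and 0 by DESeq2 and limma-voom), and 0 had an unadjusted p below 0.05 (4.65% of all tested genes). There were 48 above 0 and 59 below, with a median log2 fold change of -0.02 and a range from -0.49 (Fnip2) to 0.25 (Mfsd8). The groups did not overlap for 0 of the 107. By class, the 40 other acid hydrolases tested were 22 above and 18 below, the 22 membrane proteins 9 and 13, the 9 genes of mannose 6-phosphate sorting 3 and 6, and the 12 genes of lysosomal mTORC1 docking 3 and 9. Further, 7 of the 10 pump assembly and regulation genes were above 0, 2 of the 5 cathepsin inhibitors, 1 of the 5 hydrolase activators and lipid exporters, and 1 of the 3 TFEB family genes.

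Tcirg1, the gene of the a3 pump subunit, had 16.5, 13.2, 12.4 and 12.3 CPM in water and 11.2, 11.4, 12.8 and 13.3 CPM in zinc (log2 fold change -0.15, SE 0.15). Tfeb, the regulator of lysosomal genes, had 8.44, 6.87, 4.65 and 7.87 CPM in water and 7.84, 6.37, 6.44 and 4.58 CPM in zinc (-0.14, SE 0.22). Both overlapped between groups. Cst3, the secreted inhibitor cystatin C, was the most abundant cathepsin inhibitor, with means of 126 CPM in water and 128 CPM in zinc, and Cst7, a cystatin of immune cells, was at 0 counts in every library.

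Some members share sequence with other annotated genes, which can limit their counts. Of the longest coding transcript, 56.2% of Atp6v1e1 was shared with Slc25a18 at 98% identity or more, 47.2% of Atp6v0c with the pseudogene Atp6v0c-ps2 and another transcript, 44.3% of Ctsa with Pltp and Neurl2, and 40.5% of Lamp1 with Grtp1. Slc25a18 was at 0 counts in every library, Atp6v0c-ps2, Pltp and Neurl2 had at most 9, 2 and 5 counts, and Grtp1 had 455 to 743 counts against 6702 to 8468 for Lamp1. Other partners were abundant: Naa50, which shares 10.7% of Atp6v1a, had 1119 to 2152 counts against 766 to 1178 for Atp6v1a. Eif2s1, which with Pals1 shares 25.5% of Atp6v1d, had 659 to 1193 counts against 293 to 550. Nelfcd, which shares 31.9% of Ctsz, had 193 to 528 counts against 1246 to 2022, and Fdft1, which shares 23.4% of Ctsb, had 378 to 665 against 3937 to 5694. No such stretch was found for Ctss, Ctsh, Lamp2 or Atp6ap1. The sources used here do not say how reads in shared stretches were assigned. Matches on the opposite strand were not set apart, and with a stranded kit these need not make reads ambiguous.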

How the data were processed

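The authors deposited raw read counts for each Ensembl gene in 8 libraries (stranded mRNA kit, no molecular identifiers), as whole numbers. The submitters' processing notes name FastQC 0.12.0, STAR 2.7.0a, DESeq2 and the build mm39. The counting program: not given in the sources used here. Gene IDs were matched to GENCODE M39 on GRCm39 (54749 of 55414). Promoters came from RefSeq on GRCm38.p6, and coordinates of both builds are given separately.

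Zinc was compared with water in edgeR 4.0.16 (R 4.3.3): filterByExpr with its minimum count of 10, TMM factors, a robust quasi-likelihood fit with treatment as the only term, Benjamini-Hochberg adjustment over all 11988 tested genes, threshold 0.05. SE is the size of the log2 fold change divided by the root of the F statistic. P-values set the difference between the groups against the spread between libraries of a group, which in the main fit includes any spread tied to replicate number. Libraries of a group all differed from each other by more than sampling noise (chi-square per degree of freedom of at least 31.2). Zero limits were taken on TMM-scaled library sizes and cover counting error only. Shared sequence was found by blastn of the longest coding transcripts (at least 75 bases, either strand). Tables and figures were made in Python 3.11.15. The procedure was tested on simulated data.

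Members and gene lists were chosen with earlier results of these data known. The named genes were, per functional group, the 3 with the highest level per length, the one with the smallest p, any past the threshold (also with a replicate block), and those with groups that did not overlap, plus Tcirg1 and Tfeb. Other genes are named outside this rule, after their values were seen. Alternatives were RLE size factors, DESeq2 1.42.0, limma-voom (limma 3.58.1), no filter, a mean count of at least 50, a replicate block, Defa genes left out, each library left out, and other lengths. Counts of members highest or lowest in replicate 1 or replicate 4, and library totals as the scaling for them, were chosen after the data were seen. Marker lists of 11 cell types were read from the same fit. Summed levels of the lists not printed above ran from 263 to 398 CPM for enterocytes, 8129 to 13694 CPM for goblet cells and 42.2 to 105 CPM for enteroendocrine cells, with 0 genes past the threshold.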

Additional observations from a re-analysis of the deposited data

Results flagged for a closer look

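In 9 of 70 groups of 4 libraries the highest or lowest library stood apart from the other 3 by a gap past Dixon's critical value at 95%, a mark that chance gives in about 1 in 20 groups. Ctss was low in zinc 1, at 6.41 CPM, with the other 3 zinc libraries at 8.22 to 8.30 CPM. Ctsd was high in zinc 1, at 97.8 CPM against 74.2 to 78.1 CPM. Atp6v0a2 was high in zinc 4, at 68.2 CPM against 52.6 to 55.0 CPM. Atp6v1e1 was high in zinc 2, at 40.7 CPM against 37.4 to 37.6 CPM, and Ctsz was low in water 3, at 70.9 CPM against 77.2 to 78.4 CPM.

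Of the summed levels per length, V1 was high in zinc 1 (71.1 CPM per kb against 57.1 to 58.7), the accessory genes were high in water 1 (50.4 against 38.3 to 39.5) and the cysteine cathepsins were high in zinc 1 (75.9 against 66.6 to 68.1). Water 1 and zinc 1 had the lowest TMM factors of their groups. The share of Atp6v1c1 in its family was 98.3% in water 1 and 100% in the other water libraries, through the 2 counts of Atp6v1c2 in that library.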

How the results depend on the processing

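The count of members past the adjusted threshold was 0, and so was that of the other lysosome genes, in the 7 alternative fits and the 8 fits without 1 library. Over all tested genes the count of 10 became 34 in DESeq2 (8 higher, 26 lower), 66 with no low-count filter (11 higher, 55 lower) and 32 with the replicate number as a block (6 higher, 26 lower). It ran from 1 (without water 2) to 15 (without zinc 1) with a library left out, and was 4 without water 3 and 3 without zinc 2. The cause was not tested. The sign of the log2 fold change turned only with a library left out, for 12 of the 20 named genes: Atp6v0a2 (-0.018 to 0.13), Atp6v0b (-0.18 to 0.034), Atp6v0d1 (-0.066 to 0.21), Atp6v1b2 (-0.037 to 0.11), Atp6v1f (-0.11 to 0.053), Atp6ap2 (-0.17 to 0.035), Ctsb (-0.0069 to 0.13), Ctsz (-0.041 to 0.0060), Ctsd (-0.12 to 0.11), Ctsa (-0.19 to 0.091), Lamp1 (-0.13 to 0.048) and Lamp2 (-0.054 to 0.18). Among the 8 others the value ran from 0.011 to 0.28 for Atp6v0e, 0.069 to 0.22 for Atp6v1a, -0.20 to -0.027 for Atp6v1e1, 0.055 to 0.15 for Atp6ap1, -0.30 to -0.020 for Tfeb, -0.20 to -0.052 for Tcirg1, -0.56 to -0.30 for Ctsh and -0.61 to -0.48 for Ctss. Per kb of the longest coding transcript the sums were 104 (V0), 122 (V1), 78.7 (accessory), 111 (cysteine cathepsins), 37.0 (aspartic), 24.1 (serine) and 218 CPM per kb (LAMPs), and the share of Atp6v0a2 was 59.3% (62.4% with no length) and that of Atp6v1g1 93.3% (89.7%).

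The labels name no pairing, and the main fit did not take replicate numbers as one. The deviations of same-numbered water and zinc libraries nevertheless correlated above 0.1 in 3 of 4 pairs (0.0000551 to 0.263). Libraries of different numbers correlated at -0.210 to 0.0397. The TMM factors were also close by number, at 0.764 and 0.775 for replicate 1 and 1.21 and 1.23 for replicate 4. Not every library correlated best with its own number. What the libraries of a number share was not tested. With the replicate block Mt1 and Mt2 did not pass, and 0 members passed. An unadjusted p below 0.05 was found for 3 members and for 937 of the 11988 tested genes. The 3 were Ctsh (edgeR unadjusted p = 0.00035, adjusted p = 0.101), Ctss (0.0017 and 0.241) and Ctsl (0.0079 and 0.460). At 4 libraries per group, Atp6v0e2 and Atp6v1g2, with 21 to 132 counts per library, were the least precisely measured.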

Other observations

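Lgmn, the gene of legumain, a lysosomal cysteine protease of another family than the cathepsins that is known to process them, had the largest SE of the 107 tested genes in the list of other lysosome genes. It is named after its values were seen. It had 155, 129, 198 and 57.7 CPM in water and 114, 112, 266 and 114 CPM in zinc, so that replicate 3 was the highest library of both groups. Its log2 fold change was 0.17 (SE 0.47). Ggh, the gene of the lysosomal γ-glutamyl hydrolase, had 220, 147, 126 and 123 CPM in water and 263, 171, 142 and 130 CPM in zinc, with replicate 1 the highest in both groups.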
